A study of Mus musculus with 11 samples.

Results

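Of the 30681 genes in the count table, 5 encode the GABA-A receptor subunits described here: the alpha subunits alpha2 (Gabra2), alpha3 (Gabra3), alpha4 (Gabra4) and alpha5 (Gabra5), and the delta subunit (Gabrd). They were taken by mouse gene symbol, and all 5 passed the filter on low counts. The set was chosen by their family after the fold changes and p-values between the genotypes were known, so the differences between genotypes given below describe the genes and test nothing independent of that choice. Polyadenylated RNA was sequenced from hippocampi taken at 6 months of age. The libraries fall into 6 labelled as a conditional knockout of Dclk3 (cKO), a doublecortin-like kinase gene, and 5 from wild-type (WT) mice, each from a single hippocampus. The labels state neither the recombinase line, the deleted exons, the strain, the sex nor whether the libraries come from different animals, so the spread between libraries may be partly technical. The total count ran from 24001828 to 35674490 per library.

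GABA-A receptors are chloride channels opened by the inhibitory transmitter GABA, and their alpha, beta, gamma and delta subunits decide where a receptor sits and which drugs act on it. Receptors with alpha2 or alpha3 and a gamma subunit are known for fast synaptic inhibition and respond to classical benzodiazepines. Receptors with delta and alpha4 lie outside synapses in dentate granule cells and thalamic relay neurons, where they carry a tonic current that neurosteroids increase. Receptors with alpha5, held outside synapses by radixin, carry much of the tonic current of CA1 pyramidal cells.

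The targeted gene, Dclk3 (ENSMUSG00000032500), had 20.1 ± 3.44 CPM (the count relative to the scaled library total) in cKO-labelled libraries and 22.4 ± 3.31 CPM in WT (± SD over 6 and 5 libraries). Its log2 fold change was -0.15 ± 0.12 (SE) with an adjusted p of 0.727 (quasi-likelihood test of edgeR, Benjamini-Hochberg over all genes), past no threshold. Counts are per gene, which cannot show a deletion of part of it, so the group is called "labelled cKO" here. By Xist and 4 Y-linked genes all 6 libraries labelled cKO were male, while WT held 2 male libraries (replicates 2 and 5) and 3 female ones. For Gabra2, Gabrd and Gabra3 the values without the female libraries are given below.

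The genes lie at 4 places in the mouse genome (build mm10, GENCODE M21). Gabra2 (ENSMUSG00000000560, chr5:70957597-71095849, minus strand) and Gabra4 (ENSMUSG00000029211, chr5:71569749-71658308, minus strand) are 473899 bases apart in a cluster that also holds Gabrg1 and Gabrb1. Gabra5 (ENSMUSG00000055078, chr7:57407672-57510059, minus strand) lies beside Gabrg3. Gabra3 (ENSMUSG00000031343, chrX:72432681-72656848, minus strand) is X-linked. Gabrd (ENSMUSG00000029054, chr4:155384980-155398112, minus strand) is the shortest of the 5, with a span of 13133 bases against 88560 to 224168 bases for the alpha genes.

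Gabra4 and Gabrb1 are transcribed away from each other, and their gene spans overlap by 196 bases, of which 46 are exon in both. Gabra5 shares 148 exon bases (4.98% of its exon length) with the antisense gene Gm9962. The library kit marks strand, but whether counting used it is not given in the sources used here, so these shared bases may have been counted for either gene. The windows below run from 250 bases before to 50 bases after the start site (RefSeq, GRCm38.p6, 5′ to 3′ on the gene's strand). They show the start regions of the 3 alpha genes whose RefSeq and GENCODE starts are equal, with CG dinucleotides, the sites of DNA methylation, in capitals.

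Gabra2, chr5:71095800-71096099: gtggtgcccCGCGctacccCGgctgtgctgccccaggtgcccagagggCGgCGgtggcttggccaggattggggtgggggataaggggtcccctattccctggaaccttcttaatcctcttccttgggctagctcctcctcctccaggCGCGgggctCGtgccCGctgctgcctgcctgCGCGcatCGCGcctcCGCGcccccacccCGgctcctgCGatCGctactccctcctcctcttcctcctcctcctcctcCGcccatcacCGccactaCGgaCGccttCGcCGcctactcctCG
Gabra4, chr5:71658259-71658558: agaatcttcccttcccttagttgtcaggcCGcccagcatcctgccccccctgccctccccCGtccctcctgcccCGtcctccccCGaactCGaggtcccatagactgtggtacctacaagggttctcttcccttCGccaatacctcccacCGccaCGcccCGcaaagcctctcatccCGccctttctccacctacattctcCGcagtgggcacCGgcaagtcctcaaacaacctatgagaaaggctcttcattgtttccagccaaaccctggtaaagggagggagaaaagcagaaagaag
Gabra5, chr7:57510010-57510309: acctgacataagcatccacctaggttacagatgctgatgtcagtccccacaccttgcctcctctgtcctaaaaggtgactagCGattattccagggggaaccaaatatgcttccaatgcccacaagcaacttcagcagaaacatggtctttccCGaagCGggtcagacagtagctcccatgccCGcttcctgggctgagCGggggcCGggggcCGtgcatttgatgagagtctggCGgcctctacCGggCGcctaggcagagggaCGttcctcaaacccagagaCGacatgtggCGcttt

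The Gabra2 window held 25 CG dinucleotides and 70.0% G or C. Those of Gabra4 and Gabra5 held 12 and 13, with 58.7% and 56.7% G or C. Both windows given for Gabra3 held no CG, which is so in 5.43% of the 32851 mouse promoter windows of that length, whose median was 7 with quartiles of 3 and 20. In the Gabra4 window the first 18 transcribed bases, chr5:71658291-71658308, are exon of Gabrb1 as well.

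Per kilobase of exon, Gabra5 had the highest level of the 5 in every library, and Gabrd the lowest. Over all 11 libraries Gabra5 averaged 78.3 ± 4.15 CPM per kb, Gabra2 36.1 ± 2.85, Gabra3 22.6 ± 3.75, Gabra4 19.4 ± 1.53 and Gabrd 9.38 ± 1.495 CPM per kb (SD, n = 11). Gabra5 was 1.93 to 2.46 times Gabra2, and Gabra2 was 1.299 to 2.02 times Gabra3 in the same library. Gabra3 and Gabra4 were not separated: Gabra3 was higher in 8 of 11 libraries, with a ratio from 0.923 to 1.63. Their order also hung on the length used, since by the longest annotated transcript Gabra3 was higher in 3 of 11 libraries. Gabra4 was 1.44 to 2.59 times Gabrd.

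**Figure D1:**
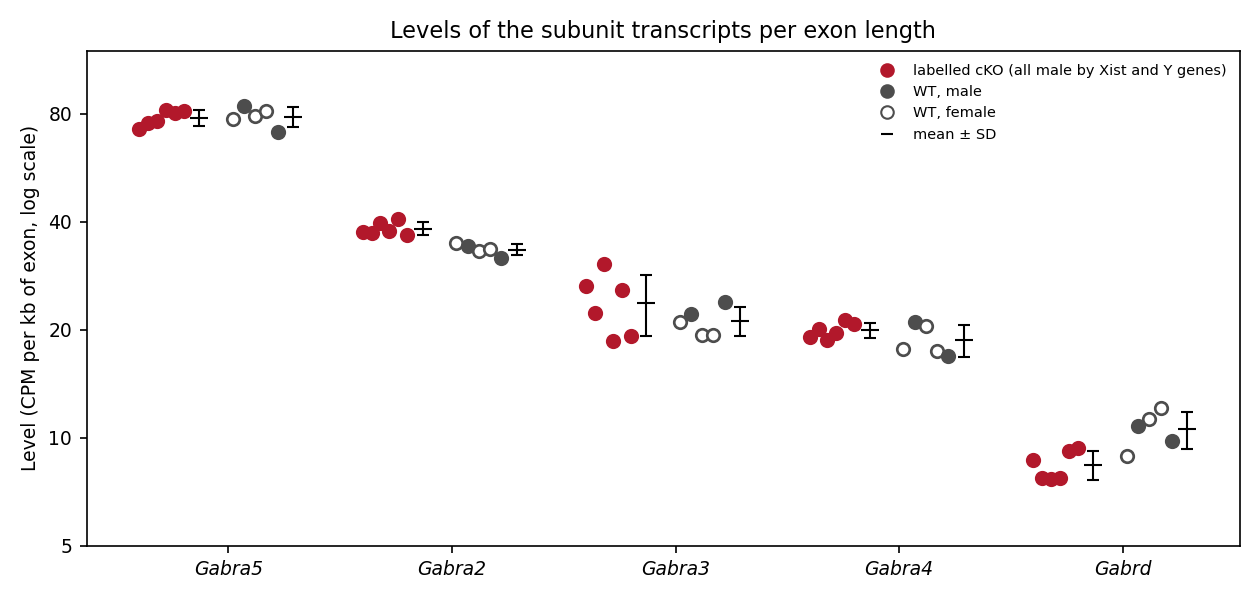
Levels per kilobase of exon (log scale) of the 5 subunit transcripts, with 1 point per library, labelled cKO in red and WT in grey, and the mean ± SD beside each group. Gabra5 lies between 71.1 and 84.1 CPM per kb, Gabrd between 7.65 and 12.1, and the points of Gabra3 and Gabra4 overlap.

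Gabra2, the alpha subunit enriched at synapses on the axon initial segment, had a higher level in all 6 libraries labelled cKO than in any WT library. Its level ran from 281 through a median of 287 to 312 CPM in libraries labelled cKO, against 266, 261, 254, 256 and 242 CPM in WT replicates 1 to 5. The gap between the groups was narrower than the range within either. The means were 292 ± 12.1 CPM in cKO-labelled libraries and 256 ± 9.25 CPM in WT (± SD over 6 and 5 libraries), a log2 fold change of 0.19 ± 0.04 (SE; 95% interval 0.10 to 0.28). In the 8 male libraries it was 0.22 ± 0.06 (log2 ± SE).

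Gabrd, whose product forms the extrasynaptic receptors of dentate granule cells, had a lower mean in libraries labelled cKO. Its level ran from 22.004 through a median of 23.6 to 26.9 CPM in libraries labelled cKO, against 25.6, 30.9, 32.4, 34.9 and 28.2 CPM in WT replicates 1 to 5. WT replicate 1 lay among the libraries labelled cKO, and the other 4 WT libraries lay above all 6 of them. The means were 24.1 ± 2.25 CPM in cKO-labelled libraries and 30.4 ± 3.62 CPM in WT (± SD over 6 and 5 libraries). The log2 fold change was -0.34 ± 0.08 (SE; 95% interval -0.50 to -0.17), and -0.29 ± 0.09 in the 8 male libraries. In a sample of whole tissue, fewer cells of a type and less RNA per cell cannot be told apart.

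Gabra4, the usual partner of delta in the forebrain, ran from 114 through 120.5 to 129 CPM in libraries labelled cKO, against 107, 128, 125, 106 and 103 CPM in WT replicates 1 to 5. The WT values spanned more than those of the libraries labelled cKO, and the groups overlapped. The log2 fold change was 0.09 ± 0.06 (SE; 95% interval -0.04 to 0.22).

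Gabra5, the extrasynaptic subunit of CA1, ran from 215 through 233 to 245 CPM in libraries labelled cKO, against 229.9, 249.98, 235, 242 and 211 CPM in WT replicates 1 to 5. Both ends of the range over all 11 libraries were WT libraries. This made a log2 difference of -0.01 ± 0.05 (SE; 95% interval -0.12 to 0.10).

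Gabra3, the X-linked alpha subunit, varied most of the 5 among libraries labelled cKO, though not among WT libraries. It ran from 73.05 through 94.1 to 119.6 CPM in libraries labelled cKO, against 82.7, 86.8, 75.9, 76.1 and 94.1 CPM in WT replicates 1 to 5. The WT range lay inside that of the libraries labelled cKO, where the coefficient of variation was 19.4%, against 9.23% in WT. For the other 4 genes it was 4.14% to 9.31% in cKO-labelled libraries and 3.62% to 11.9% in WT. The log2 fold change of Gabra3 was 0.17 ± 0.12 (SE; 95% interval -0.10 to 0.44). It was 0.05 ± 0.18 in the 8 male libraries and 0.08 ± 0.10 without replicate 3 labelled cKO, the highest library. Among WT libraries, Gabra3 had 86.8 and 94.1 CPM in the 2 males and 75.9 to 82.7 CPM in the 3 females. With a sex term, the male minus female difference was 0.21 ± 0.18 (log2 ± SE) and did not pass the test (edgeR, adjusted p = 0.981).

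**Figure D2:**
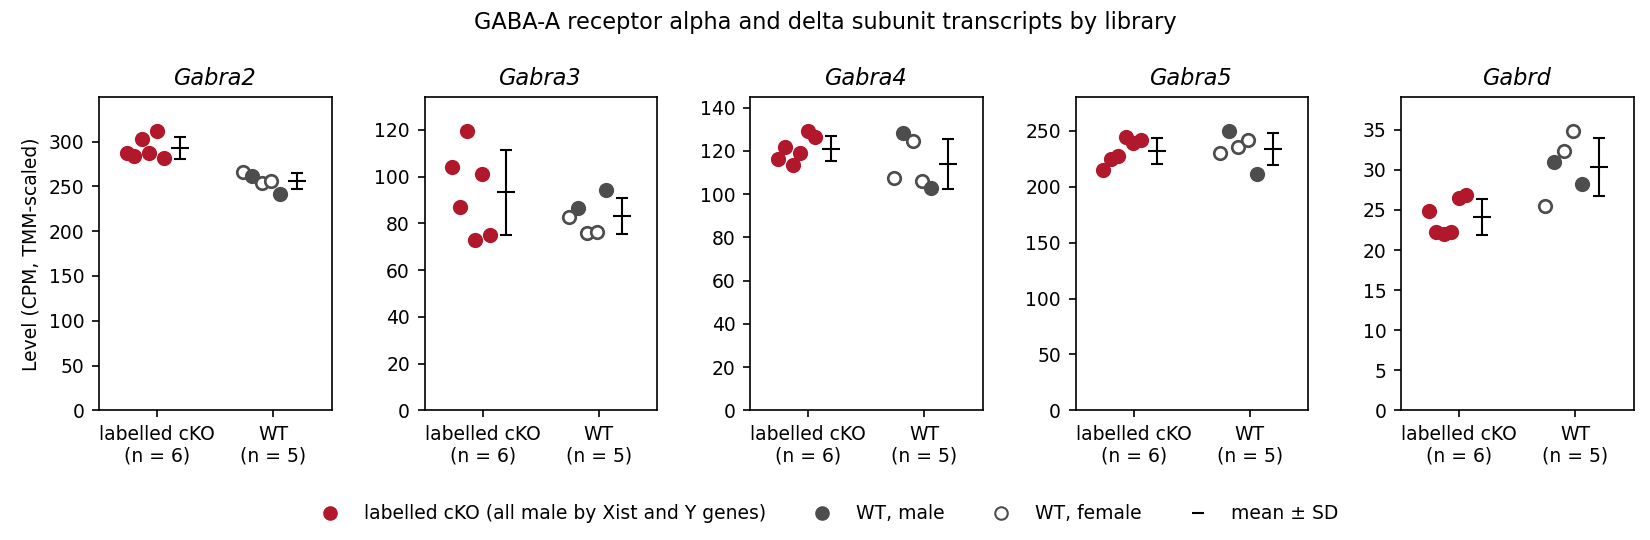
Level in CPM of each subunit transcript, with 1 point per library (open points are female WT libraries by Xist and Y-linked genes) and the mean ± SD of each group. The 6 libraries labelled cKO sit above all 5 WT libraries for Gabra2, and below 4 of them for Gabrd.

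By edgeR's test over all genes, 0 of the 5 genes were called between the genotypes at an adjusted p under 0.05, as were 0 of the 16587 tested (0%). At an unadjusted p under 0.05, 2 of the 5, Gabra2 and Gabrd, were past the threshold, against 9.19% of all genes tested (3.84% higher, as Gabra2, and 5.35% lower, as Gabrd). DESeq2 called the same 2 genes, against 0.426% of the genes it adjusted. Only Gabra2 had groups that did not overlap, against 0.916% of all genes tested (0.404% higher and 0.512% lower). These shares are given as a background, since the genes were picked with this contrast known.

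Within each library the balance between the subunits can be read free of scaling. Gabra2 was 4.59 ± 0.44 times Gabrd per kilobase in cKO-labelled libraries and 3.21 ± 0.44 times in WT (± SD over 6 and 5 libraries). The lowest ratio among the libraries labelled cKO, 3.94 in replicate 6, barely cleared the highest in WT, 3.92 in replicate 1. The ratio of Gabrd to Gabra4 was 0.386 to 0.453 in cKO-labelled libraries and 0.504 to 0.695 in WT, with a gap narrower than the range within either group. The ratio of Gabra2 to Gabra5 was 0.453 to 0.519 in cKO-labelled libraries and 0.407 to 0.451 in WT. The share of other gene pairs whose ratios do not overlap was not computed, so these ratios are a description. Of the summed level of the 5 genes per kilobase, Gabrd made up 4.98% ± 0.44 in cKO-labelled libraries and 6.50% ± 0.69 in WT, and Gabra2 22.7% ± 0.37 and 20.6% ± 0.72 (SD, n = 6 and 5, in the same order of groups).

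**Figure D3:**
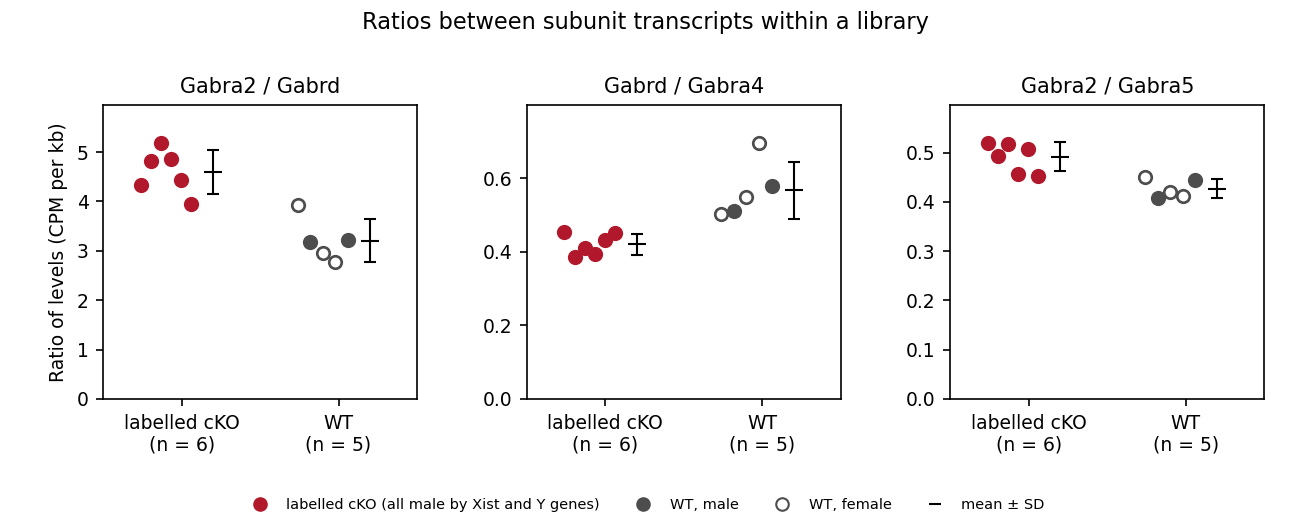
Ratios of levels per kilobase between subunit transcripts of the same library, by group, with mean ± SD. Gabrd over Gabra4 is 0.386 to 0.453 in the 6 libraries labelled cKO and 0.504 to 0.695 in the 5 WT libraries.

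The next question was what the 5 transcripts vary with between libraries of the same genotype, a measure that does not use the difference between genotypes. Levels were centred on the mean of each genotype and set against scores of 10 lists of cell type markers, the mean centred log2 CPM of each list, in 50 relations. Gabrd varied with the 15 dentate granule cell markers, such as Prox1, the transcription factor of granule cell identity, past the adjusted threshold by rank but not by Pearson's r (Pearson r = 0.86, permutation p = 0.00223, adjusted 0.0637; Spearman rho = 0.89, permutation p = 0.00027, adjusted 0.0135; n = 11 libraries). Without replicate 3 labelled cKO and WT replicate 1, farthest from the median score, r was 0.82. Gabra4, which granule cells also express, had r = 0.50 (permutation p = 0.172, adjusted 0.763) with the same markers, and rho = 0.38 (permutation p = 0.330, adjusted 0.848). Without the same 2 libraries its r was 0.34.

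For Gabra3 the relation of smallest p was with the 10 CA1 pyramidal cell markers, such as Wfs1, and did not pass adjustment by either measure (r = 0.85, permutation p = 0.00255, adjusted 0.0637; rho = 0.86, permutation p = 0.00231, adjusted 0.0577; n = 11 libraries). Without replicate 4 labelled cKO and WT replicate 3, the farthest, r was 0.80. The CA1 list holds Dcn, which is also in the list for meninges and choroid plexus. Among WT libraries the 2 males had higher CA1 scores (0.05 and 0.07) than the 3 females (-0.17 to -0.01). The WT males also had more Gabra3, so within WT this relation cannot be told apart from sex. Gabra3 also had r = 0.81 with the interneuron markers (permutation p = 0.0163, adjusted 0.272; rho = 0.75, permutation p = 0.0338, adjusted 0.564), and 0.76 without replicates 2 and 3 labelled cKO. Gabrd had r = -0.70 with striatal markers (permutation p = 0.0348, adjusted 0.435; rho = -0.57, permutation p = 0.0929, adjusted 0.626), and -0.70 without replicate 4 labelled cKO and WT replicate 5. Gabra3 had r = 0.53 with the markers of meninges and choroid plexus (permutation p = 0.149, adjusted 0.763, rho = 0.52, permutation p = 0.147, adjusted 0.670). Without replicate 5 labelled cKO and WT replicate 2, the farthest, that r was 0.88. By Pearson's r 0 of the 50 relations passed after adjustment, and by Spearman's rho 1 did, that of Gabrd and the dentate markers. Unadjusted permutation p by Pearson's r was under 0.05 for 4 relations, Gabrd with dentate and striatal and Gabra3 with CA1 and interneuron markers.

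**Figure D4:**
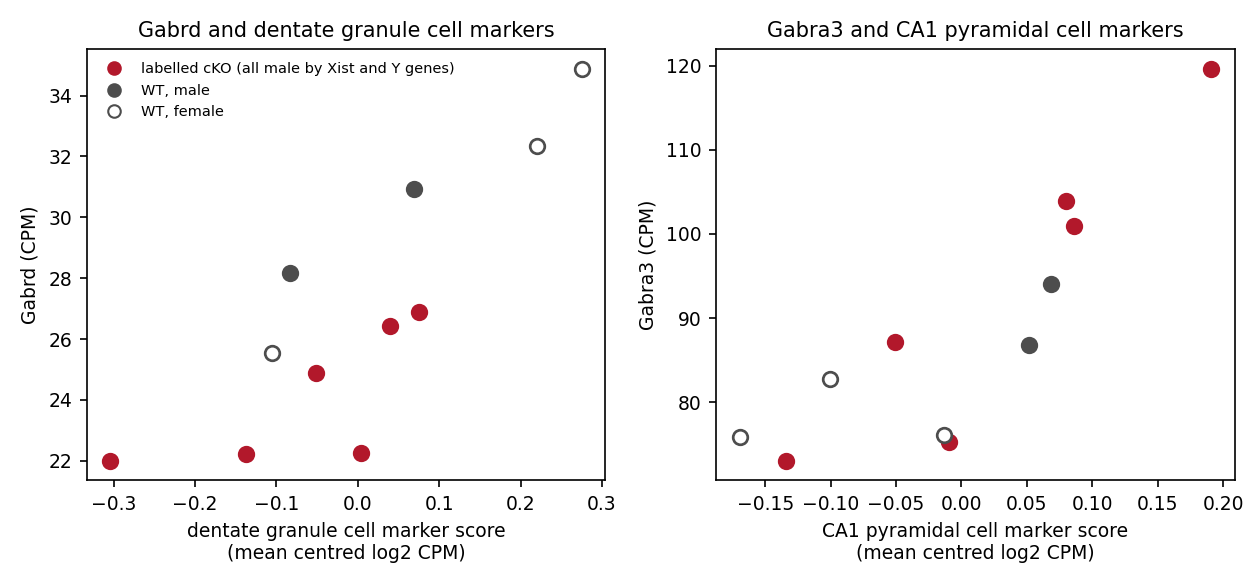
Level of Gabrd against the dentate granule cell marker score (left) and of Gabra3 against the CA1 pyramidal cell marker score (right), with 1 point per library. After centring on genotype means, but not on sex, r was 0.86 on the left and 0.85 on the right.

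Markers of the cells known for delta receptors stand beside the lower Gabrd values. Of the 15 dentate markers 11 had a log2 fold change below 0 and 0 passed the test over all genes, with a median of -0.08 against -7.86e-05 over all genes tested. Among those of smallest p were Plk5 at -0.29 ± 0.13, Tdo2 at -0.55 ± 0.24 and Dsp, encoding desmoplakin, at -0.51 ± 0.25 (log2 ± SE). Of the 4 above 0, C1ql2 was at 0.19 ± 0.20 and Cntnap5a at 0.11 ± 0.11 (log2 ± SE). Prox1 was at -0.09 ± 0.09 (log2 ± SE). C1ql2, Cntnap5a and Prox1 were named here after their values were seen. The summed level of the 15 dentate markers was 708 to 867 CPM in cKO-labelled libraries and 719 to 925 CPM in WT, and no marker was at 0 in all libraries. Of the 16 thalamic markers 11 were below 0 and 0 passed, with a median of -0.09. Their summed level was 264 to 301 CPM in cKO-labelled libraries and 290.4 to 312 CPM in WT. The list holds Zic1, a transcription factor, at -0.46 ± 0.09, Ramp3 at -0.59 ± 0.13, Prkcd at -0.33 ± 0.09 and Rgs16 at -0.35 ± 0.11 (log2 ± SE), while Slc17a6 and Tcf7l2, which define thalamic relay neurons, were at 0.0033 ± 0.18 and 0.0082 ± 0.14 (both named after their values were seen). Of the 10 markers of meninges and choroid plexus, which include the GABA transporter gene Slc6a13, 8 were below 0, with a median of -0.32. Of these markers 0 passed the test over all genes (edgeR). At an unadjusted p under 0.05 (edgeR) 5 of them were lower, against 5.35% of all genes tested. The same held for 4 of the 16 thalamic and 3 of the 15 dentate markers. The summed level of the meninges and choroid markers was 164 to 361 CPM in cKO-labelled libraries and 223 to 277 CPM in WT. The 5 of this list that were lower at that threshold were Slc13a4 at -0.76 ± 0.16, Igf2 at -0.56 ± 0.12, Aldh1a2 at -0.93 ± 0.21, Slc6a13 at -0.62 ± 0.16 and Slc22a6 at -0.73 ± 0.20 (log2 ± SE). The choroid plexus genes Ttr, Kl, Folr1 and Kcnj13 were at 0.13 ± 0.42, -0.07 ± 0.05, -0.07 ± 0.34 and -0.09 ± 0.40 (log2 ± SE). Slc22a6 and these choroid plexus genes were named after their values were seen. Within genotypes, Gabrd had r = 0.17 with the thalamic score (permutation p = 0.662, adjusted 0.867, rho = 0.05, permutation p = 0.886, adjusted 0.964, n = 11). Without the 2 libraries farthest from the median r was 0.65. With the meninges and choroid score Gabrd had r = -0.09 (permutation p = 0.801, adjusted 0.890, rho = -0.16, permutation p = 0.645, adjusted 0.856, n = 11), and -0.50 without the 2 farthest. The part of any of these cell types in the lower Gabrd values was not tested. The summed level of 5 cerebellar genes was 6.28 to 13.0 CPM in cKO-labelled libraries and 6.08 to 8.24 CPM in WT. Most of it came from Car8, which is not specific to granule cells, at 7.77 ± 1.35 and 6.69 ± 0.78 CPM (± SD over 6 and 5 libraries).

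Beside the higher Gabra2 values stand those of astrocyte and microglial markers. Of 10 astrocyte markers 9 had a log2 fold change above 0 and 0 passed the test over all genes, with a median of 0.18. Mlc1 was at 0.16 ± 0.05, Gja1, which encodes connexin 43, at 0.21 ± 0.06, Slc1a2, the main glutamate transporter, at 0.22 ± 0.07 and Aqp4, the water channel of astrocyte end-feet, at 0.26 ± 0.09 (log2 ± SE). The summed level of the list was 8802 to 10866 CPM in cKO-labelled libraries and 7149 to 8388 CPM in WT. Much of that sum came from Slc1a2, with 5206 ± 443 CPM in cKO-labelled libraries and 4476 ± 312 CPM in WT, and from Gfap, an intermediate filament gene named after its values were seen, with 1608 ± 1062 and 799 ± 271 CPM (± SD over 6 and 5 libraries). Gfap had the largest log2 fold change of the list, 1.01 ± 0.46, while Slc1a3 was at 0.06 ± 0.06 and Fgfr3 at -0.01 ± 0.06 (log2 ± SE). Within genotypes, Gabra2 had r = -0.17 with the astrocyte score (permutation p = 0.666, adjusted 0.867; rho = -0.27, permutation p = 0.453, adjusted 0.848; n = 11), and 0.47 without the 2 libraries farthest from the median. The part of astrocytes in the Gabra2 difference was not tested. Microglial markers were above 0 in 10 of 10, with a median of 0.19 and 0 past the test. At an unadjusted p under 0.05 (edgeR) 5 of them and 4 of the astrocyte markers were higher, against 3.84% of all genes tested. Gabra2 had r = -0.14 with the microglial score within genotypes (permutation p = 0.702, adjusted 0.870; rho = -0.05, permutation p = 0.890, adjusted 0.964; n = 11). The part of microglia in the Gabra2 difference was not tested either. Of the CA1 markers 8 of 10 were above 0 (median 0.05), of the CA3 markers 3 of 7 (median -0.0035) and of the interneuron markers 5 of 15 (median -0.0057). Of the striatal markers 4 of 9 were above 0 (median -0.05) and of the oligodendrocyte markers 6 of 10 (median 0.02). In each of these lists 0 passed the test. At an unadjusted p under 0.05 (edgeR) 2 CA1 markers, 2 striatal markers and 1 interneuron marker were higher. By the same threshold 2 of the 7 CA3 markers and 1 striatal marker were lower, against 5.35% of all genes tested. Of the oligodendrocyte markers 0 were past it in either direction.

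The beta and gamma subunits assemble with the alpha subunits. All 6 genes had log2 fold changes above 0, as did 8293 of all 16587 genes tested, with a median of 0.15, and 0 passed the test over all genes. Gabrb2 had 117 ± 4.69 CPM in cKO-labelled libraries and 104 ± 1.84 CPM in WT (± SD over 6 and 5 libraries), and Gabrb1 212 ± 6.92 and 189 ± 10.0 CPM, and neither gene's groups overlapped, against 0.404% of all genes tested that did not overlap on the higher side. Gabrg1, next to Gabra2, was at 0.19 ± 0.08 (log2 ± SE). In the cluster on chromosome 5, Gabrg1, Gabra2 and Gabrb1 were at 0.17 to 0.19 and Gabra4, between them, at 0.09. In the cluster on chromosome 7, Gabrg3 was at 0.13 ± 0.11 and Gabra5 at -0.01 ± 0.05 (log2 ± SE).

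**Figure D5:**
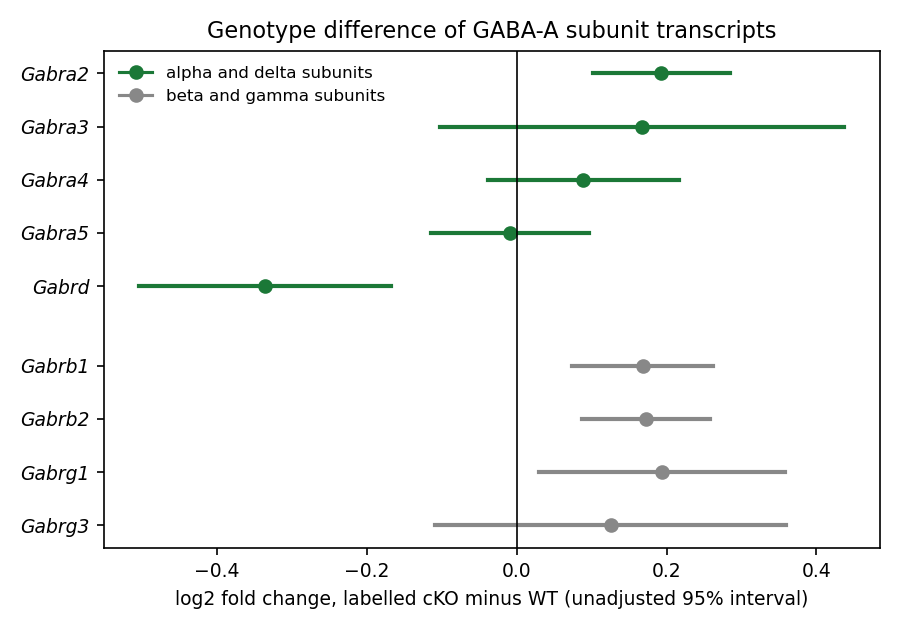
Log2 fold change, labelled cKO minus WT, of the 5 alpha and delta subunit genes and of 4 beta and gamma subunit genes, with unadjusted 95% intervals. Gabrd at -0.34 is the only one of the genes drawn whose interval lies below 0.

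Further genes encode proteins that place and move the receptors. Of 20 tested genes for anchoring and trafficking 16 had log2 fold changes above 0, with a median of 0.04, and 0 passed the test. Those of smallest p were Trak2, a kinesin adaptor, at 0.28 ± 0.12, Insyn1, of the inhibitory postsynapse, at 0.11 ± 0.05, Shisa7, a receptor auxiliary protein, at -0.12 ± 0.06 and Iqsec3 at 0.08 ± 0.05 (log2 ± SE). Gphn, which encodes the scaffold gephyrin, was at 0.03 ± 0.06, and Rdx, which encodes the alpha5 anchor radixin, at 0.06 ± 0.04 (both named after their values were seen).

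Genes of GABA synthesis and transport were split, with 4 of 8 above 0, a median of 0.01 and 0 past the test. The GABA-producing enzymes Gad1 and Gad2 were at 0.03 ± 0.06 and 0.08 ± 0.06 (log2 ± SE). Slc6a13, a GABA transporter also found in meninges, was at -0.62 ± 0.16 (log2 ± SE). Of 5 chloride transport genes 2 were above 0, with a median of -0.03 and 0 past the test. Slc12a5, the chloride extruder that makes GABA inhibitory, was at -0.03 ± 0.05, and Wnk1, a kinase that regulates it, at 0.09 ± 0.05 (log2 ± SE). The other 2 of smallest p were Clcn2 at -0.10 ± 0.08 and Stk39 at 0.05 ± 0.04 (log2 ± SE). Of 5 tested genes of neurosteroid synthesis, whose products act on delta receptors, 3 were above 0, with a median of 0.08 and 0 past the test. Tspo was at 0.24 ± 0.20, Akr1c14 at 0.16 ± 0.17, Cyp11a1 at -0.09 ± 0.16 and Star at 0.08 ± 0.16 (log2 ± SE). Their summed level, with 3 genes that were not tested, was 21.3 to 27.4 CPM in cKO-labelled libraries and 20.6 to 25.6 CPM in WT.

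Likeness over the 11 libraries, as Pearson's r of levels centred on each genotype's mean, was used to name the 3 genes nearest to each subunit among the 16587 tested. For Gabra2 these were Csrnp1 (r = 0.95), Gm42517 (0.89) and Gtpbp4 (0.88), and for Gabra3 Spsb4 (0.97), Arnt2 (0.95) and Efna5 (0.95). For Gabra4 they were Ube2w (0.96), Crk (0.94) and Capza2 (0.93), for Gabra5 Fam84a (0.95), Ube2e2 (0.94) and Gm4960 (0.92), and for Gabrd Uhrf2 (0.94), Jph1 (0.94) and Gzmm (0.93). Gm4960 and Gzmm averaged 0.347 and 1.49 CPM over the 11 libraries, so their r values rest on few counts. The 11 libraries share tissue and preparation, so the values are a description. Jph1 had a log2 fold change of -0.23 ± 0.07 and Csrnp1 of -0.35 ± 0.10, opposite in sign to Gabra2 (log2 ± SE). No rule picked these genes for their fold changes, and those of the other nearest genes are not given here.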

How the data were processed

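The values are raw counts per Ensembl gene, used as the authors deposited them, without normalization. Demultiplexing with bcl2fastq 2.17.1.14 and the build mm10 are named per the submitters' processing notes. For the aligner, counter, annotation and strand setting the sources used here give nothing. Of 30681 genes 30566 matched a symbol. Genes kept by filterByExpr (16587) were scaled by TMM factors, and the genotypes compared with edgeR's robust quasi-likelihood F test (2-sided, Benjamini-Hochberg over all genes, threshold 0.05). The script was tested on simulated data. Each SE was derived from a gene's fold change with its F statistic. The intervals have 95% coverage. Log2 CPM used a prior count of 2. Relations with marker lists used 100000 permutations within genotypes. The relation script skipped the cerebellar list, of which 2 genes were tested.

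The 5 members, the gene lists and the alternatives were chosen with earlier results of these data known. Named are the 5 members, their cluster neighbours, in each list up to 4 genes of smallest p, the 3 genes most like each member, and Dclk3. Some genes that the rule takes are not reported here. Between replicates chi-square per degree of freedom was at least 5.31, so no 2 libraries were alike within sampling noise. R 4.3.3, edgeR 4.0.16, limma 3.58.1, DESeq2 1.42.0, Python 3.11.15 and scipy 1.17.1 were used.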

Additional observations from a re-analysis of the deposited data

How the results depend on the processing

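The log2 fold changes of Gabra2 (0.16 to 0.22), Gabra3 (0.05 to 0.23), Gabra4 (0.05 to 0.14) and Gabrd (-0.39 to -0.28) kept their sign under all 21 alternatives. DESeq2 called Gabra2 (0.20, adjusted p = 0.00232) and Gabrd (-0.33, adjusted p = 0.0387), and no other alternative called any of the 5. Leaving out 1 library gave 0.17 to 0.20 for Gabra2 (edgeR, adjusted p 0.108 to 0.714) and -0.39 to -0.28 for Gabrd (edgeR, adjusted p 0.128 to 0.714). Gabra5 turned to 0.0094 with a sex term and 0.0117 in the 8 male libraries, and ran from -0.045 to 0.0162 without 1 library. Gabra4 was 0.14 without WT replicate 2 and 0.05 without WT replicate 5. The number of genes called was 0 with edgeR, 61 with DESeq2, 1 with library totals, 3 with no filter on low counts, and 0 to 14 without 1 library, the 14 without WT replicate 5. The replicate numbers do not pair the samples (correlations of same-numbered libraries -0.32 to 0.21). With the replicate block 0 genes were called, Gabra2 was at 0.20, Gabrd at -0.37, Gabra3 at 0.21, Gabra4 at 0.08 and Gabra5 at -0.02. By the longest transcript the levels were 47.1 CPM per kb for Gabra2, 28.7 for Gabra4 and 87.2 for Gabra5. Without 1 library r was 0.81 to 0.95 for Gabrd and dentate markers (permutation p adjusted 0.0075 to 0.187). It was past the adjusted threshold only without replicate 2 labelled cKO. For Gabra3 and CA1 markers r was 0.77 to 0.90 (permutation p adjusted 0.035 to 0.421), past the threshold only without WT replicate 4. The call by rank for Gabrd and dentate markers was not examined with 1 library left out. The causes were not tested. The 631 counts or more of Gabrd per library leave counting error below the spread between libraries.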

Other observations

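Among themselves the 5 transcripts showed no relation within genotypes that passed adjustment over the 10 pairs. The pair of Gabra4 and Gabra5 had r = 0.62 (permutation p = 0.0618, adjusted 0.391; rho = 0.55, permutation p = 0.115, adjusted 0.573; n = 11 libraries), and r = 0.56 without the 2 libraries farthest from the median of Gabra4. Gabra3 and Gabra5 had r = -0.54 (permutation p = 0.0782, adjusted 0.391; rho = -0.62, permutation p = 0.0584, adjusted 0.573), and r = -0.52 without the 2 farthest. Gabra4 and Gabrd, partners in the same receptor, had r = 0.43 (permutation p = 0.261, adjusted 0.464; rho = 0.26, permutation p = 0.503, adjusted 0.686), and r = 0.45 without the 2 farthest. These pairs were chosen for testing after the data were seen.

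The rare subunits were near the limit of detection. Of 6 in the table (Gabra6, Gabre, Gabrq, Gabrr1, Gabrr2 and Gabrr3) 2 were tested, Gabrr2 at 0.477 ± 0.20 CPM in cKO-labelled libraries and 0.499 ± 0.065 CPM in WT, and Gabrq at 0.404 ± 0.18 and 0.433 ± 0.19 CPM (SD, n = 6 and 5). Their log2 fold changes, -0.06 ± 0.27 and -0.07 ± 0.34 (SE), did not pass the test.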
